A study of Rattus norvegicus with 72 samples.

Results

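A set of 8 genes that the transcription factor p53 switches on after DNA damage and other stress was followed through the lungs of 72 rats that had breathed either filtered air or diesel exhaust particles (DEP, the soot aerosol of diesel engines). They are Cdkn1a, Mdm2, Ccng1, Bax, Gadd45a, Sesn2, Phlda3 and Bbc3. The genes were taken by symbol from a count table of 30042 gene symbols, and all 8 were found there. The rule used their names alone.

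The animals were adult male Sprague-Dawley rats, an outbred laboratory strain, in 12 groups of 6. They inhaled DEP at 1000 or 200 ug/m3, or filtered air, with whole-body exposure for 6 hours on each of 4 days, and the lungs were taken 1, 7 or 27 days after exposure ended. Titles of air animals bear an H or an L, H being shared with the 1000 ug/m3 animals and L with the 200 ug/m3 animals, so that each exposed group of 6 has an air group of 6 of its own letter and day. What H and L stand for, and whether both sets were handled together, is not given in the labels. One piece of lung per animal gave 1 library of total RNA depleted of ribosomal RNA, so every value is an average over all cell types of that piece, and fewer cells of a type cannot be told apart from less RNA per cell.

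p53 is held at a low level in unstressed cells because Mdm2, itself a p53 target, marks it for degradation. When DNA breaks or bulky adducts activate the kinases Atm and Atr, p53 is stabilised and raises the transcripts of genes that stop the cell cycle, aid repair or start apoptosis. Diesel soot carries polycyclic aromatic hydrocarbons, whose metabolites can form bulky DNA adducts, and its particles can cause oxidation of DNA bases. The 8 transcripts are common readouts of that response, although several are also raised by other stress pathways.

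The day 1 libraries held between 1042336 and 2397971 counts, those of day 7 between 3471134 and 6279763 and those of day 27 between 3761631 and 6520180, leaving aside 3 shallow libraries. These were animal 37 (1000 ug/m3, day 7) with 105453 counts and animals 24 and 45 (1000 ug/m3, day 27) with 439393 and 149004 counts. Depth therefore cannot be told apart from day when day 1 is compared with later days. No 2 libraries of a group held the same counts (180 pairs compared). The lung label was matched by its markers: Sftpc, the surfactant protein of type II pneumocytes, had a median of 5572 CPM (counts relative to a library total of 1000000, scaled with TMM factors) with 2869 CPM in the lowest animal. Ager, a type I pneumocyte gene, had a median of 1649 CPM.

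RefSeq start regions of the assembly GRCr8 were at hand for 6 of the 8 members, all but Bax and Bbc3. The 250 bases before each start were searched for the p53 decamer in its strict consensus form. That 10-base consensus reads the same on both strands, so 1 search covers both. Cdkn1a, Ccng1 and Gadd45a held 1 match each, and Mdm2, Sesn2 and Phlda3 held 0. Of 33469 windows of the same length in the rat gene set, 6.6% held at least 1 match. A complete element, made of a pair of exact decamers at most 13 bases apart, was in 0 of the 6 members and in 0.04% of all windows. Elements with a mismatch were not counted. In Cdkn1a the 10 bases that directly follow the decamer miss the consensus at their first base only. A match describes the letters of the window and not a bound site, and windows this short leave out introns, where Mdm2 and other targets are known to carry p53 elements. The 3 windows with a match are shown 5′ to 3′ because they belong to 3 arrest genes whose levels behaved differently below. Capitals mark the decamer, which begins 201 bases before the start in Cdkn1a (chr20:7150682-7150931, plus strand), 232 bases before it in Ccng1 (chr10:25684877-25685126, minus strand) and 48 bases before it in Gadd45a (chr4:97486800-97487049, minus strand).
Cdkn1a: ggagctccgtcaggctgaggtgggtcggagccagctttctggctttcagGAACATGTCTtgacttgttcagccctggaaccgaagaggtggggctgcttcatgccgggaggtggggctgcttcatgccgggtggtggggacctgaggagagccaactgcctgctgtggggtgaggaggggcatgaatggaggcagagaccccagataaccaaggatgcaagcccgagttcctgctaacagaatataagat
Ccng1: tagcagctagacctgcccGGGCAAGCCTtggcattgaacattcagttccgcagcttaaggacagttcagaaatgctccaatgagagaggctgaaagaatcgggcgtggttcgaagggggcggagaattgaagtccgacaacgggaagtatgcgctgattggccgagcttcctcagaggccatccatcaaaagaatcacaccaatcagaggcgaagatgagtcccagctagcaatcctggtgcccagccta
Gadd45a: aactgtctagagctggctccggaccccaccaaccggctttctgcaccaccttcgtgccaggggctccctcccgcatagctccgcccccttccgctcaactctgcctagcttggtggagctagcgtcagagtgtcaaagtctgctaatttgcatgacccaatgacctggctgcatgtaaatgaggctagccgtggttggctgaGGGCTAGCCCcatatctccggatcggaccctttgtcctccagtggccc

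The first question was whether DEP changed these transcripts relative to air of the same letter and day. In edgeR's quasi-likelihood test, adjusted over all genes tested, none of the 48 values (8 genes at 2 concentrations and 3 days) passed an adjusted p of 0.05. At an unadjusted p under 0.05 there were 2 of the 48, where 6.12% of all genes lay below that level in the same comparisons. limma-voom called 0 of 48, and DESeq2 called 0 of the 40 to which it gave an adjusted p. The 8 without one were all those of 200 ug/m3 at day 27. The background was as quiet: the share of all genes called was 0% at day 1 after 1000 ug/m3, 0% at day 1 after 200 ug/m3, 0% at day 7 after 1000 ug/m3, 0.00698% (1 of 14331) at day 7 after 200 ug/m3, and 0% at day 27 after either concentration. The log2 fold changes of the members ran from -0.37 to 0.31, with a median size of 0.07 beside 0.09 for all genes. All 48 of the 95% intervals excluded a 2-fold change in either direction, and 43 excluded a 1.5-fold change.

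**Figure D1:**
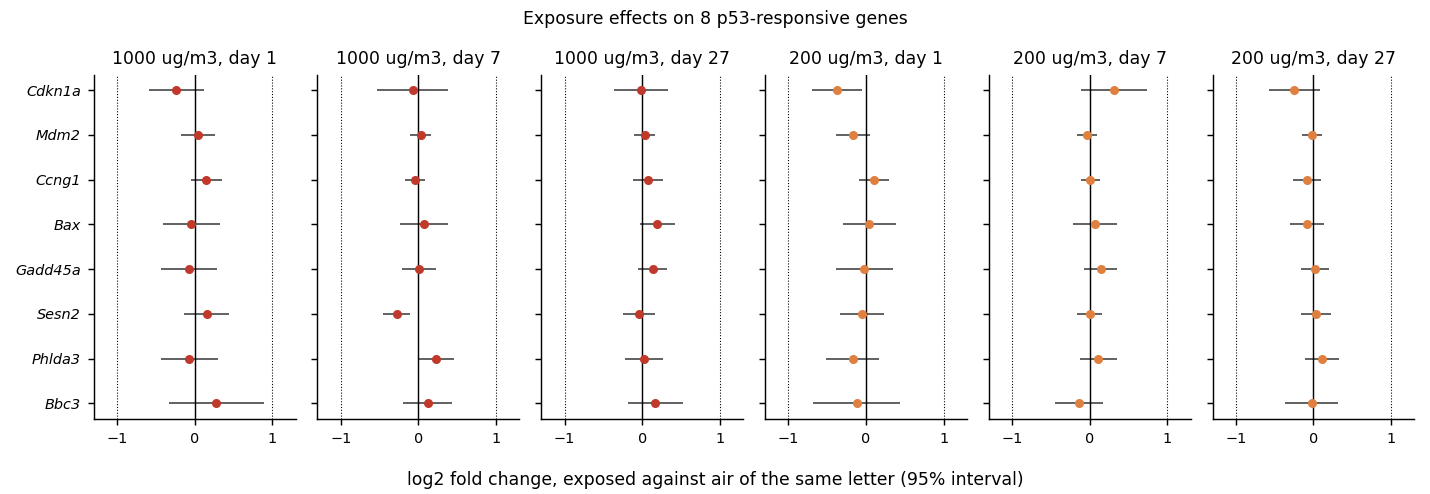
Log2 fold change of each gene, exposed against air lungs of the same letter (horizontal axis), with its 95% interval, in 6 panels for 2 concentrations and 3 days. Dotted lines mark a 2-fold change in either direction, and all 48 intervals lie between them; values run from -0.37 to 0.31.

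Among the genes of growth arrest, Cdkn1a encodes p21, the inhibitor of cyclin-dependent kinases and the classical p53 target. In air H lungs at day 1 its lowest, median and highest levels were 27.6, 33.8 and 37.2 CPM, and after 1000 ug/m3 they were 18.6, 26.8 and 38.4 CPM. Those ranges overlapped, with 5 of 6 exposed animals below the air median (log2 fold change -0.24, SE 0.17). At day 1 the levels were 32.0, 39.8 and 60.4 CPM in air L and 32.2, 33.2 and 40.1 CPM after 200 ug/m3. The exposed animals of that pair sat within the lower part of the air range, and the log2 fold change was the lowest of the 48 (-0.37, SE 0.16, edgeR's unadjusted p = 0.0252 and adjusted p = 0.794). At day 7 after 200 ug/m3 the sign was the opposite, with 25.4, 33.9 and 46.6 CPM against 20.5, 25.1 and 40.4 CPM in air L (0.31, SE 0.21), the highest of the 48. The remaining Cdkn1a effects were -0.07 (SE 0.22) and -0.02 (SE 0.17) for 1000 ug/m3 at days 7 and 27 and -0.25 (SE 0.16) for 200 ug/m3 at day 27. Cdkn1a was thus the member with the widest range of exposure effects, 1 of 6 of them positive, and none passed the test.

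Ccng1, cyclin G1, recruits a phosphatase that acts on Mdm2 and is among the most regular p53 targets in rodent tissue. At day 1 its lowest, median and highest levels were 77.9, 97.2 and 119 CPM in air H and 83.4, 113 and 123 CPM after 1000 ug/m3. They were 96.1, 103 and 112 CPM in air L and 95.4, 112 and 125 CPM after 200 ug/m3. In both pairs 5 of 6 exposed animals were above the air median, while the ranges overlapped and neither log2 fold change passed (0.15, SE 0.10, and 0.10, SE 0.10). At day 7 the exposed and air lungs of each letter were close, at 133 ± 5.34 CPM (SD, n = 6) after 1000 ug/m3 against 136 ± 8.65 in air H, and 109 ± 6.77 after 200 ug/m3 against 109 ± 9.60 in air L. The intervals of these day 7 effects ran from 0.89-fold to 1.06-fold and from 0.92-fold to 1.09-fold. The second may be too narrow, because edgeR's unadjusted p of 0.942 was larger than it implies. Day 27 gave 0.07 (SE 0.09) and -0.08 (SE 0.09).

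Gadd45a, which binds PCNA and takes part in arrest and repair, had exposure effects between -0.07 (SE 0.18, 1000 ug/m3, day 1) and 0.14 (SE 0.10, 200 ug/m3, day 7). In that last pair the lowest, median and highest levels were 33.5, 35.3 and 36.97 CPM after exposure and 27.9, 31.6 and 38.8 CPM in air L. The exposed animals lay inside the air range and all 6 were above its median. After 1000 ug/m3 at day 7, 1 exposed library had 0 Gadd45a counts and 0 Bax counts. It was the shallowest one, animal 37, in which 3 counts (the upper limit that a count of 0 allows) would stand for 25.97 CPM, a limit that covers counting error only. In the other 5 animals of the group Gadd45a stood at 31.7 to 40.9 CPM and Bax at 13.3 to 22.6 CPM.

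Mdm2, the ubiquitin ligase that limits p53, had the narrowest spread of exposure effects apart from 1 value. In air L at day 1 its lowest, median and highest levels were 79.4, 85.8 and 88.9 CPM, and after 200 ug/m3 they were 54.8, 77.5 and 93.4 CPM. The exposed animals reached both below and above the air animals (log2 fold change -0.16, SE 0.11). The other 5 Mdm2 effects lay between -0.03 (SE 0.07) and 0.04 (SE 0.11), and the intervals of the 4 at days 7 and 27 stayed between 0.89-fold and 1.13-fold. At day 7 the levels were 73.5, 74.8 and 77.9 CPM in air L and 70.4, 73.1 and 77.7 CPM after 200 ug/m3, so both groups kept within a few CPM.

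Of the genes of cell death, Bax encodes the pore-forming protein of the outer mitochondrial membrane and Bbc3 encodes PUMA, a BH3-only activator of Bax. Bax had its largest exposure effect at day 27 after 1000 ug/m3, with 18.0, 20.1 and 24.6 CPM (lowest, median, highest) against 15.3, 18.0 and 19.6 CPM in air H. Most of the exposed animals were in the upper part of the air range or above it, 5 of 6 beyond its median, but the value did not pass (0.19, SE 0.11, adjusted p = 0.739 by edgeR). Its 5 other effects lay between -0.08 (SE 0.11) and 0.07 (SE 0.15). Bbc3 rested on the fewest counts, with group medians from 12.5 counts at day 1 to 48 at day 27, and its day 1 effects of 0.28 (SE 0.30) and -0.12 (SE 0.28) had the widest intervals, 0.79-fold to 1.85-fold and 0.63-fold to 1.35-fold. At days 7 and 27 the Bbc3 effects lay between -0.13 (SE 0.15) and 0.17 (SE 0.18).

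Phlda3, a pleckstrin-homology protein that competes with Akt for membrane lipids, stood at 33.1, 44.7 and 59.3 CPM (lowest, median, highest) in air H at day 7. After 1000 ug/m3 the values were 17.3, 53.2 and 58.8 CPM, where the lowest animal was the library of 105453 counts with 2 Phlda3 counts and the other 5 lay at 49.9 CPM or above. The groups overlapped and the log2 fold change of 0.23 (SE 0.12) did not pass. The 5 other effects lay between -0.17 (SE 0.17) and 0.11 (SE 0.12).

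Sesn2, sestrin 2, restrains mTORC1 and supports the reduction of peroxiredoxins; besides p53 it is raised by ATF4 and NRF2. It had the smallest unadjusted p of the 48. At day 7 the levels were 31.6, 36.9 and 38.02 CPM (lowest, median, highest) in air H and 26.2, 30.4 and 34.6 CPM after 1000 ug/m3. All 6 exposed animals were below the air median. The ranges overlapped only through animal 37 (105453 counts), at 34.6 CPM from 4 Sesn2 counts. The other 5 exposed animals lay at 26.2 to 31.0 CPM. The log2 fold change was -0.28 (SE 0.08, edgeR's unadjusted p = 0.00236) and did not survive adjustment over 14331 genes (adjusted p = 0.99997). Without the shallow library it was -0.28 (SE 0.08). Day 1 after the same concentration had the other sign (0.15, SE 0.14), and the 4 remaining effects lay between -0.05 (SE 0.14) and 0.03 (SE 0.10).

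**Figure D2:**
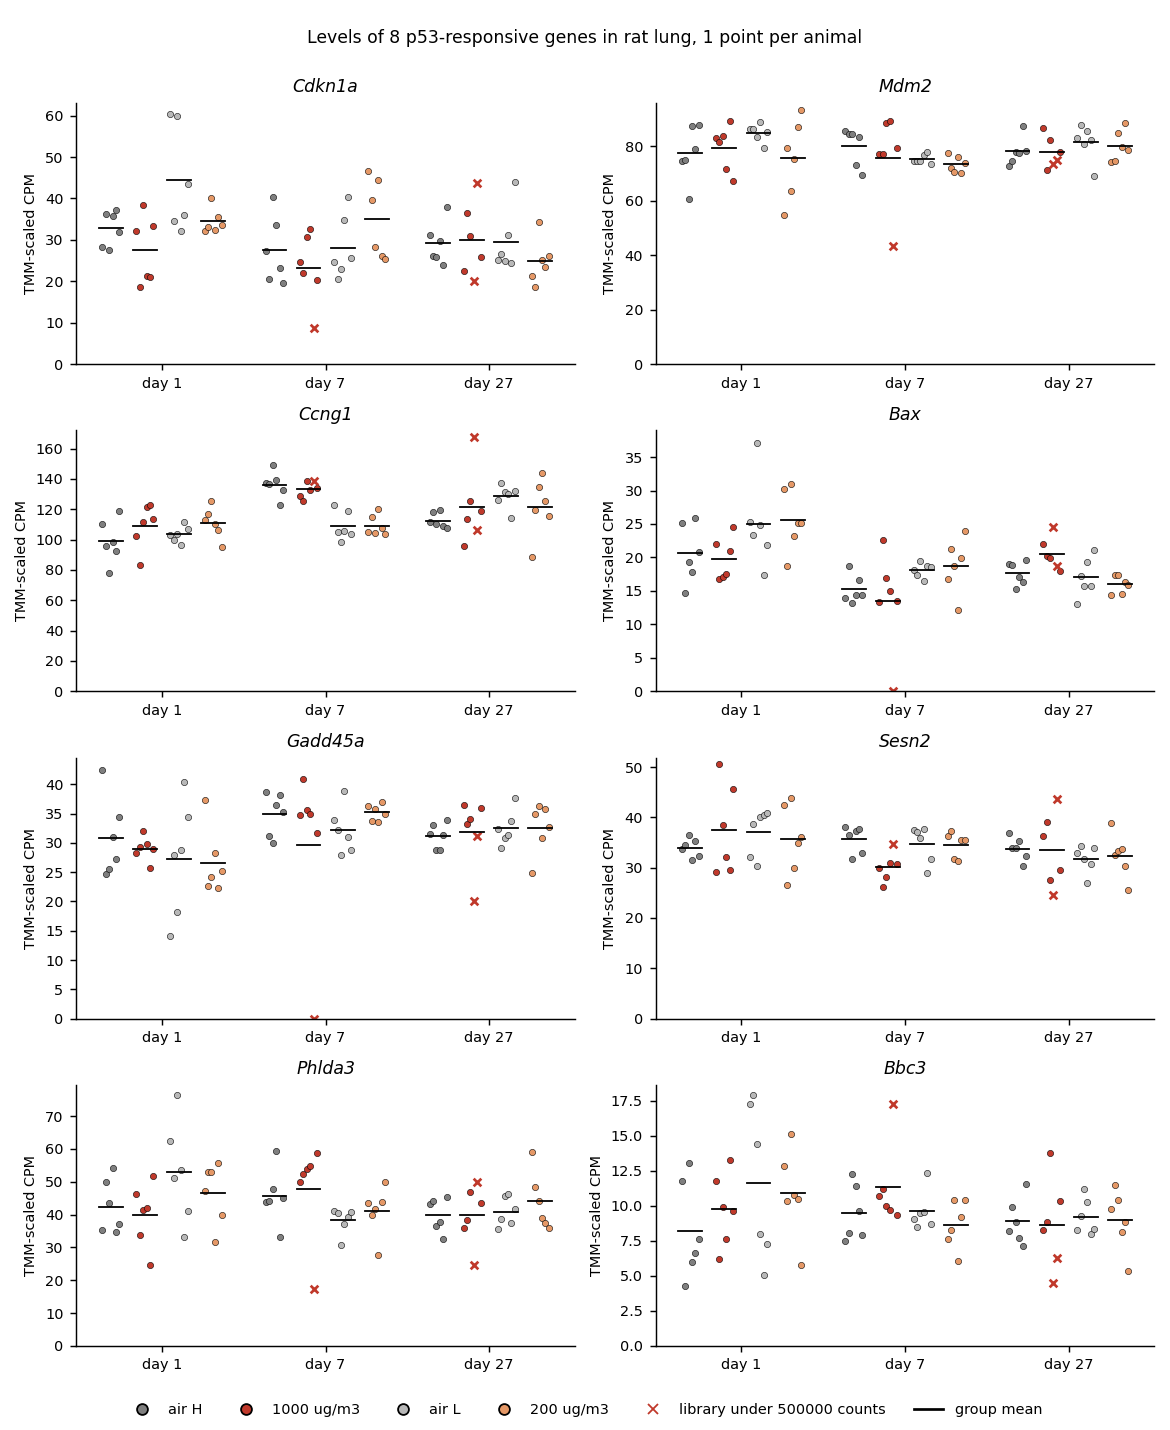
TMM-scaled CPM of each gene (vertical axis, from 0) in every animal, by day and group, with a bar at the mean of each group of 6 and crosses for the 3 libraries under 500000 counts. Exposed and air points of the same letter overlap in all panels at each day, for Sesn2 at day 7 after 1000 ug/m3 only through a cross. Ccng1 shows the high air H and 1000 ug/m3 lungs of day 7, at means of 136 and 133 CPM.

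Pooling both concentrations and all days, with day and letter as strata, set 36 exposed against 36 air animals. None of the 8 members passed (0.0134% of 14956 genes did), and at an unadjusted p under 0.05 there were 0; DESeq2 and limma-voom called 0 each. The average effects lay between -0.09 (SE 0.08) for Cdkn1a and 0.05 (SE 0.06) for Phlda3. The widest intervals were those of Cdkn1a, 0.84-fold to 1.05-fold, and Bbc3, 0.91-fold to 1.14-fold. The interval of Mdm2 was 0.94-fold to 1.03-fold. It may be too narrow, because edgeR's unadjusted p of 0.762 was larger than it implies. That of Ccng1 was 0.97-fold to 1.06-fold.

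The effects of both concentrations were also compared with each other. None of 24 differences (1000 minus 200 ug/m3) passed, and 1 had an unadjusted p under 0.05, Sesn2 at day 7 (-0.28, SE 0.12, edgeR's unadjusted p = 0.0230 and adjusted p = 0.932). Of all genes, 0.00813% were called at day 1, 0% at day 7 and 0% at day 27. Nor did any of 48 changes of an effect between days pass, where 0% of all genes were called in each of the 6 comparisons, and 3 had an unadjusted p under 0.05. These were Sesn2 after 1000 ug/m3 from day 1 to day 7 (-0.44, SE 0.16), and Cdkn1a after 200 ug/m3 from day 1 to day 7 (0.69, SE 0.29) and from day 7 to day 27 (-0.56, SE 0.26). DESeq2 and limma-voom called 0 in both families, where DESeq2 gave an adjusted p to 22 of the 24 and 40 of the 48 values. The intervals were wider here: 22 of the 24 and 46 of the 48 excluded a 2-fold change, but 14 and 33 excluded a 1.5-fold one.

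Other genes of the pathway were as flat under exposure. A further 9 lists of 84 genes covered p53 with its regulators, further p53 targets, base excision, double-strand break and nucleotide excision repair, relatives of the members and BCL2 family partners. Between 70 and 79 of these genes were tested in a comparison. Over the 6 exposure comparisons 0 of 450 values passed in edgeR, and 29 (6.44%) had an unadjusted p under 0.05. DESeq2 called 0 of those values to which it gave an adjusted p. Intervals excluded a 2-fold change for 448 of the 450. The list medians lay between -0.15 and 0.08. The lists of further arrest and stress targets and of relatives had their smallest p at Zmat3, an RNA-binding zinc finger protein (1000 ug/m3, day 27: -0.39, SE 0.14, adjusted p = 0.642), and at Gadd45b (1000 ug/m3, day 7: 0.35, SE 0.10, adjusted p = 0.99997). Polb, the DNA polymerase of base excision repair, had -0.62 (SE 0.19, adjusted p = 0.627) at day 1 after 200 ug/m3, and Mre11a, of the break-sensing complex, had 0.21 (SE 0.07, adjusted p = 0.651) at day 7 after 200 ug/m3. Rad23b, a damage recognition factor of nucleotide excision repair, had -0.14 (SE 0.06, adjusted p = 0.426) at day 27 after 200 ug/m3. For cell death and its control the values were 0.50 (SE 0.19, adjusted p = 0.794) for Perp at day 1 and 0.48 (SE 0.14, adjusted p = 0.421) for Bcl2 at day 7, both after 200 ug/m3, and the repair targets had Polk at 0.23 (SE 0.11, adjusted p = 0.831) at day 7 after 200 ug/m3.

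The second question was whether the 2 sets of air lungs matched. At day 1, 0 of 8 members passed between air H and air L, with 1.68% of all genes called. DESeq2 and limma-voom called 0 each, and DESeq2 gave Bax and Bbc3 no adjusted p. The 1 member with an unadjusted p under 0.05 was Cdkn1a, at 27.6, 33.8 and 37.2 CPM in air H and 32.0, 39.8 and 60.4 CPM in air L (-0.45, SE 0.16, edgeR's adjusted p = 0.105). All 6 air H animals were below the air L median and the ranges overlapped.

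At day 7 Ccng1 was the 1 member of 8 that passed, with higher levels in air H, where 25.5% of all genes were called. Its lowest, median and highest levels were 123, 137 and 149 CPM in air H and 98.2, 105 and 123 CPM in air L, so the ranges only touched at their ends (0.33, SE 0.06, adjusted p = 8.7e-05 by edgeR). It kept its call in all 10 alternative settings. Phlda3 had 0.26 (SE 0.12, adjusted p = 0.106) and Bax -0.25 (SE 0.14, adjusted p = 0.220), and neither passed. The exposed lungs of day 7 differed between the letters too. Among them 3 members passed between 1000 and 200 ug/m3, where 27.9% of all genes were called. Ccng1 was higher after 1000 ug/m3 with no overlap (125 to 139 CPM against 104 to 120 CPM; 0.28, SE 0.06, adjusted p = 0.000906). Phlda3 was higher as well (0.37, SE 0.12, adjusted p = 0.0176), and Sesn2 was lower (-0.24, SE 0.08, adjusted p = 0.0352), a call that was lost in 5 of 10 alternative settings. Letter and concentration cannot be told apart in that contrast. With the air groups subtracted, the differences were -0.05 for Ccng1, 0.11 for Phlda3 and -0.28 for Sesn2, as part of the 24 values above that did not pass.

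At day 27, 0 of 8 members passed between air H and air L (14% of all genes were called), with 1 at an unadjusted p under 0.05; DESeq2 and limma-voom called 0. Ccng1 was the one, now lower in air H, at 107 to 119 CPM against 114 to 137 CPM (-0.20, SE 0.09, edgeR's adjusted p = 0.117). It passed only in the fit of those 12 libraries alone (-0.21, SE 0.05, adjusted p = 0.0074). In the exposed lungs 0 of 8 passed between concentrations at day 1 (0% of all genes) and 0 of 8 at day 27 (0%). At an unadjusted p under 0.05 there was 1 each, both times Bax. DESeq2 and limma-voom called 0, and DESeq2 gave Bbc3 at day 1 no adjusted p. Relative to 200 ug/m3, Bax after 1000 ug/m3 had -0.38 (SE 0.18, adjusted p = 0.381) at day 1 and 0.33 (SE 0.11, adjusted p = 0.469) at day 27. The day 27 groups did not overlap, at 18.0 to 24.6 CPM and 14.3 to 17.45 CPM. The value of 24.6 CPM came from a shallow library. The 4 deep libraries of the 1000 ug/m3 group lay at 18.0 to 21.96 CPM, also without overlap.

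The last question was how the members moved with time in lungs that breathed only air. Of 48 values 11 (22.9%) passed, where 23.5% of the values of all genes did in the same 6 comparisons. They were in Ccng1, Bax, Cdkn1a and Phlda3, while Mdm2, Gadd45a, Sesn2 and Bbc3 passed in none of the 6 comparisons. DESeq2 called 11 and limma-voom 8. In air H, 2 of 8 members passed from day 1 to day 7 (38.6% of all genes), 1 of 8 from day 7 to day 27 (30%) and 0 of 8 from day 1 to day 27 (10.5%), where 1 member, Ccng1, had an unadjusted p under 0.05 (0.17, SE 0.09); 0 were called by either DESeq2 or limma-voom. In air L, 3 of 8 passed from day 1 to day 7 (13.6%), 1 of 8 from day 7 to day 27 (16.2%) and 4 of 8 from day 1 to day 27 (31.9%).

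In air H, Ccng1 rose from day 1 to day 7, from 77.9, 97.2 and 119 CPM (lowest, median, highest) to 123, 137 and 149 CPM, with no overlap (0.49, SE 0.08, adjusted p = 7.7e-06). It then fell by day 27 to 107, 111 and 119 CPM, again without overlap (-0.31, SE 0.08, adjusted p = 0.00140). In air L the step from day 1 to day 7 did not pass (0.06, SE 0.08), and Ccng1 rose between days 7 and 27, from 98.2, 105 and 123 CPM to 114, 131 and 137 CPM (0.25, SE 0.08, adjusted p = 0.0193). Day 27 air L lungs did not overlap with those of day 1 (0.31, SE 0.08, adjusted p = 0.00369). Ccng1 thus peaked at day 7 in one set of air lungs and stood highest at day 27 in the other. All 5 tests that it passed among the air groups, the set difference at day 7 included, held in each of the 10 alternative settings.

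Bax had its highest mean at day 1 in both sets. In air H it fell from 14.8, 20.1 and 25.9 CPM at day 1 to 13.2, 14.4 and 18.8 CPM at day 7, with overlap (-0.40, SE 0.15, adjusted p = 0.0268). At day 27 air H stood at 15.3, 18.0 and 19.6 CPM, which did not pass against day 1 (-0.21, SE 0.14, adjusted p = 0.371) or day 7 (0.19, SE 0.12, adjusted p = 0.272). In air L it fell from 17.3, 24.1 and 37.1 CPM at day 1 to 16.5, 18.4 and 19.5 CPM at day 7 (-0.47, SE 0.15, adjusted p = 0.0274) and stood at 13.1, 16.5 and 21.1 CPM at day 27 (-0.55, SE 0.15, adjusted p = 0.00350 against day 1). Group medians of Bax at day 1 rested on 23.5 to 37.5 counts, and these comparisons cross the gap in depth.

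Cdkn1a and Phlda3 fell in air L, while their steps in air H did not pass; the difference between the sets was not tested. Cdkn1a went from 32.0, 39.8 and 60.4 CPM at day 1 to 20.5, 25.1 and 40.4 CPM at day 7 (-0.68, SE 0.20, adjusted p = 0.0202) and to 24.5, 25.8 and 44.0 CPM at day 27 (-0.60, SE 0.20, adjusted p = 0.0185 against day 1). In air H the same steps were -0.23 (SE 0.18) and -0.17 (SE 0.17). Phlda3 went from 33.2, 52.4 and 76.5 CPM at day 1 to 30.8, 39.9 and 41.1 CPM at day 7 (-0.48, SE 0.15, adjusted p = 0.0268) and 35.5, 40.3 and 46.3 CPM at day 27 (-0.38, SE 0.15, adjusted p = 0.0498). The last call was lost in 6 of 10 alternative settings. The air L lungs of day 1 held the highest group mean of Cdkn1a, Mdm2, Phlda3 and Bbc3, and the widest spread of Bbc3, with a coefficient of variation of 47.7%.

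Markers of blood moved with the air L comparison of day 27 with day 1: 5 of 5 tested red blood cell markers fell, and their sum went from 1995 to 4219 CPM at day 1 to 1106 to 1352 CPM at day 27, with no marker at 0. In air L 4 of 5 also fell from day 1 to day 7 and 3 of 5 from day 7 to day 27, and in air H 2 of 5 and 3 of 5 fell over the same steps. Over the day 7 difference between air H and air L, 2 of 5 neutrophil markers were higher in air H (sums of 63.0 to 267 CPM against 69.3 to 103 CPM) and 3 of 6 lung epithelium markers were lower (14802 to 18114 CPM against 15543 to 20079 CPM). Of all genes, 31.9% were called in air L from day 1 to day 27, 13.6% from day 1 to day 7 and 16.2% from day 7 to day 27. In air H 38.6% and 30% were called over the last 2 steps, and 25.5% between air H and air L at day 7. The part of these markers in the members' differences was not tested.

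**Figure D3:**
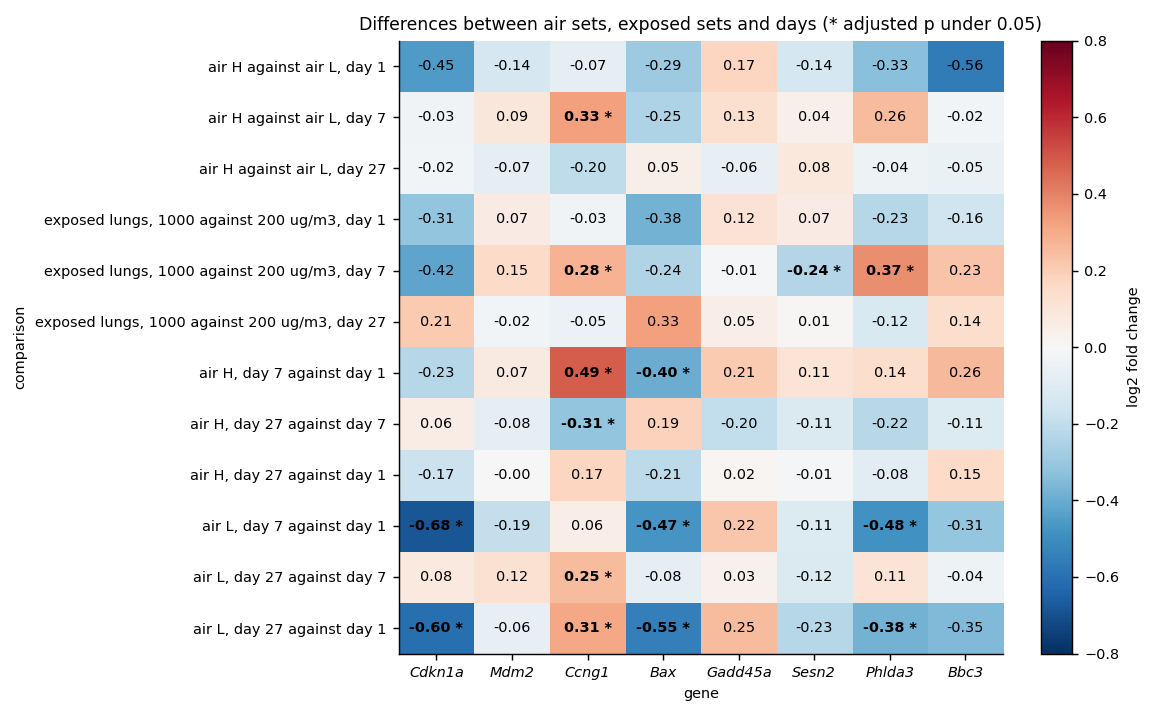
Log2 fold changes of the 8 genes (columns) in 12 comparisons that do not set DEP against air (rows): air H against air L, exposed lungs of both concentrations against each other, and days within the air sets. Stars mark adjusted p-values under 0.05; 6 of the 15 stars belong to Ccng1, and Mdm2, Gadd45a and Bbc3 have none.

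At days 7 and 27, Zmat3, a p53 target outside the set of 8, had larger fold changes between the air sets than any member had. At day 7 it stood at 12.8, 16.1 and 18.5 CPM (lowest, median, highest) in air H and at 25.1, 28.7 and 33.6 CPM in air L, with no overlap (-0.89, SE 0.12, adjusted p = 1.2e-06 by edgeR). At day 27 the order was turned, with 26.7 to 38.02 CPM in air H and 17.1 to 23.7 CPM in air L (0.66, SE 0.13, adjusted p = 0.00111). The exposed lungs of day 7 followed their letters, with 14.4 ± 2.43 CPM (SD, n = 6) in those given 1000 ug/m3 and 27.1 ± 4.72 CPM in those given 200 ug/m3 (-0.96, SE 0.13, adjusted p = 1.2e-06).

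**Figure D4:**
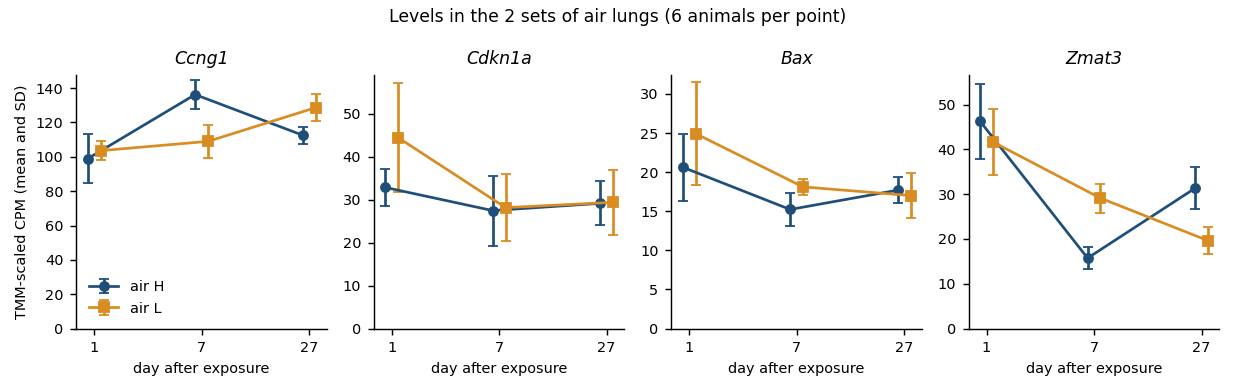
Mean TMM-scaled CPM with SD (vertical axis, from 0; 6 animals per point) of Ccng1, Cdkn1a, Bax and Zmat3 in air H and air L lungs at days 1, 7 and 27. Ccng1 peaks at day 7 in air H and at day 27 in air L, at 136 and 129 CPM, while Zmat3 is lowest at those same points, at 15.7 and 19.6 CPM.

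Of the pathway lists as a whole, 2 of 70 tested genes passed between the air sets at day 1, 15 of 77 at day 7 (6 higher and 9 lower in air H) and 13 of 78 at day 27 (10 higher and 3 lower), shares of 2.86%, 19.5% and 16.7%. At day 1 these were Phlda1 (-0.56, SE 0.15, adjusted p = 0.0459) and the single-strand break repair scaffold Xrcc1 (-0.52, SE 0.13, adjusted p = 0.0396). At day 7 the stress sestrin Sesn3 (-0.52, SE 0.09), the apoptosis effector Bak1 (-0.45, SE 0.13), the histone variant gene H2afx (-0.55, SE 0.13), Brca2 (-0.63, SE 0.15) and Ercc4, a nuclease of nucleotide excision repair (-0.46, SE 0.14), were lower in air H, and the damage kinase Atr (0.31, SE 0.08), the end-joining ligase Lig4 (0.26, SE 0.06) and Bcl2 (0.45, SE 0.14) were higher, with adjusted p-values from 9.95e-05 to 0.0157. Others that passed at day 7 included Usp7 (-0.28, SE 0.06) and the p53 target Plk3 (-0.60, SE 0.21, adjusted p = 0.0319), lower in air H. Fas (0.35, SE 0.12) and Apaf1 (0.15, SE 0.05) were higher. Sesn3 (0.26, SE 0.08), Bak1 (0.44, SE 0.13), Brca2 (0.50, SE 0.11) and Ercc4 (0.49, SE 0.14) had the other sign at day 27. So had Plk3, with a larger change than these (0.82, SE 0.17, adjusted p = 0.00188). H2afx, Atr, Lig4 and Bcl2 did not pass at day 27. Further genes that passed then included Hipk2 (0.40, SE 0.08), Mdm4 (0.16, SE 0.05) and Parp1 (0.24, SE 0.07), higher in air H. Lower in air H were Xpc (-0.19, SE 0.06), Nbn (-0.25, SE 0.07) and Rad23b (-0.16, SE 0.05). Between the exposed lungs of day 7, 19 of 77 (24.7%) passed, beside 27.9% of all genes. Over days in air, between 6 and 29 of the 77 or 78 tested genes passed, shares of 7.79% to 37.7% beside 10.5% to 38.6% of all genes. Between the air sets 1.68%, 25.5% and 14% of all genes were called at days 1, 7 and 27.

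Levels within a group were uneven among the members. The coefficient of variation over 6 animals had a median over groups of 7.58% for Ccng1 and 7.70% for Mdm2, and of 27.4% for Cdkn1a and 24.9% for Bbc3. Counting error alone gives medians of 4.72% for Ccng1, 5.81% for Mdm2, 9.64% for Cdkn1a and 16.3% for Bbc3, up to 29.1% in the Bbc3 group with the most. Ordering the 12 group means of each gene, the highest was 1.16 times the lowest for Mdm2, 1.25 for Sesn2, 1.32 for Gadd45a, 1.38 for Ccng1 and Phlda3, 1.41 for Bbc3, 1.89 for Bax and 1.92 for Cdkn1a. The lowest Bax and Cdkn1a groups were those of 1000 ug/m3 at day 7, which hold animal 37 with 0 and 1 counts of these genes. Without the 3 shallow libraries, an alternative chosen after seeing the data, the ratios were 1.68 for Bax and 1.79 for Cdkn1a, with other groups lowest. For Phlda3 the ratio was then 1.41, with 1000 ug/m3 at day 7 highest. In each of the 8 orders, 0 of the 11 neighbouring pairs of groups had ranges that did not overlap. Neighbours in an order by mean are the closest groups, so the count says nothing on groups further apart, such as those of Ccng1 above.

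With group means removed and the 3 shallow libraries left out, 28 pairs of members over 69 libraries had Pearson correlations of log2 CPM between -0.38 (Gadd45a and Phlda3) and 0.44 (Bax and Bbc3), with a median of 0.00, and 14 of the 28 were above 0; the median over all gene pairs was also 0.00. The next highest pairs were Phlda3 with Bbc3 (0.37) and Cdkn1a with Ccng1 (0.32). The points share libraries, depth and cell makeup, and the values are descriptive. Among 10669 other genes with a mean of at least 10 CPM, those most like Phlda3 were Sema3f (0.80), Map3k11 (0.78) and Emilin1 (0.75), and those most like Ccng1 were Anxa1 (0.69), Cct2 (0.68) and Eif1ax (0.68). For Cdkn1a they were Cd101 (0.58), Agpat3 (0.48) and Stip1 (0.47), and for Mdm2 Ccdc181 (0.57), Cd53 (0.57) and Rsph10b (0.55). Bax had Ergic3 (0.62), Yipf3 (0.62) and Eml2 (0.60), Bbc3 had Tspan14 (0.59), Vat1 (0.58) and Nab2 (0.58), and Sesn2 had Peli2 (0.55), Cdk10 (0.54) and Nav3 (0.53). Gadd45a had Sepsecs (0.61), LOC100911923 (0.61) and Tmc4 (0.61), with Spearman correlations of 0.37 to 0.42.

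**Figure D5:**
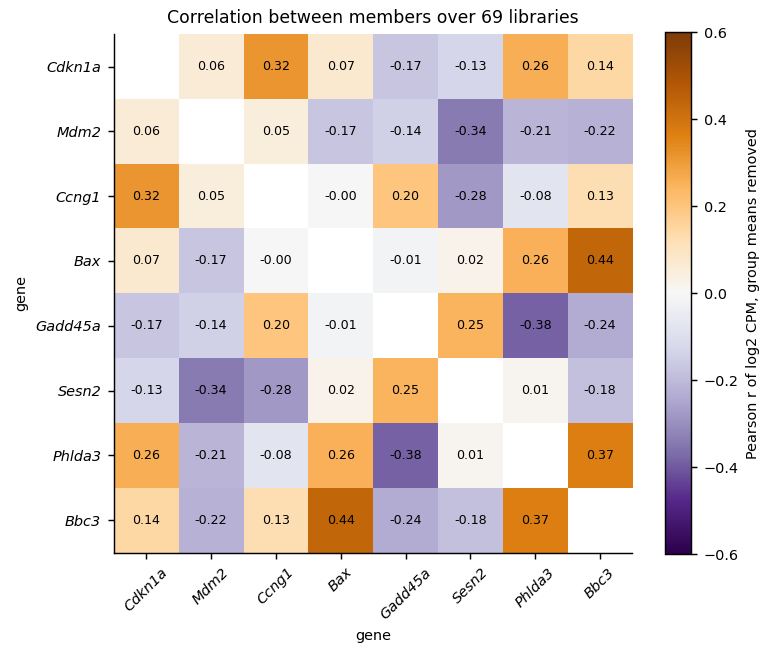
Pearson correlation between each pair of the 8 genes over 69 libraries, from log2 CPM with group means removed. Values run from -0.38 for Gadd45a and Phlda3 to 0.44 for Bax and Bbc3.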

How the data were processed

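Lung RNA from 72 rats was sequenced, and the authors deposited 1 table of read counts per gene symbol, 1 column per animal. Per the submitters' processing notes, the tools were bcl2fastq 2.19, Trimmomatic 0.35, HISAT2 2.1.0, SAMtools 1.8 and HTSeq 0.6.1 with build Rnor_6.0; annotation release and strand setting: not given in the sources used here. Counts were tested as deposited with edgeR 4.0.16 (R 4.3.3; TMM factors, filterByExpr, robust quasi-likelihood fit, Benjamini-Hochberg adjustment over all genes tested, threshold 0.05). Fits used the 24 libraries of a day, the 36 of a letter for days, or all 72. Alternatives included DESeq2 1.42.0 and limma-voom (limma 3.58.1). CPM are TMM-scaled. Scripts were tested on simulated data. Promoter windows are RefSeq's, assembly GRCr8, and were not used with the counts' coordinates. All 8 members, each of the first 3 passing genes per pathway list (by p; otherwise the smallest p) and the 3 genes most like each member (mean of at least 10 CPM) could be named. The members and lists were chosen with earlier results of these data known. Each library is 1 animal. Values of 1 further gene named by that rule are not reported here.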

Additional observations from a re-analysis of the deposited data

Results flagged for a closer look

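In 96 groups of 6 animals (8 genes in 12 groups), 8 held a highest or lowest animal that stood far from the other 5 relative to the group's range; chance flags about 1 in 20 groups. Of the 8, 5 came from shallow libraries and all 8 from 4 animals. Animal 37 (1000 ug/m3, day 7; 105453 counts) had Mdm2 at 43.3 CPM from 5 counts (nearest animal 77.2), Gadd45a at 0 CPM (nearest 31.7), Phlda3 at 17.3 CPM from 2 counts (nearest 49.9) and Bbc3 at 17.3 CPM from 2 counts (nearest 11.2). Animal 24 (1000 ug/m3, day 27; 439393 counts) had Gadd45a at 20.1 CPM from 9 counts (nearest 31.2).

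The other 3 came from deep libraries of air animals. Animal 87 (air L, day 27) had the highest Cdkn1a of its group at 44 CPM (nearest 31.2) and the lowest Mdm2 at 69.3 CPM (nearest 80.96). Animal 69 (air L, day 7) had the highest Bbc3 at 12.4 CPM (nearest 9.56).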

How the results depend on the processing

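Of 2176 values of the members under alternative settings, 2156 kept their call or lack of one, 17 lost a call, 3 gained one and 0 called values reversed; 32 uncalled values changed sign. No exposure comparison, difference of exposure effects or change of an effect with day gained a called member. The number of members called moved from 0 to 1 for air H against air L at day 27 in the fit of those 12 libraries only, from 3 to 0 without a filter and to 1 in limma-voom for air L day 7 against day 1, and from 4 to 2 without a filter for air L day 27 against day 1; the cause was not tested. Between exposed lungs of day 7, Mdm2 passed without scaling factors (0.19) and without the shallow libraries (0.18, adjusted p = 0.0281 by edgeR). Other scalings moved the median of all genes by at most 0.062. Over all genes, air H against air L at day 1 had 207 calls, against 129 with a 1 CPM filter, 446 in DESeq2 and 1016 in the fit of all 72 libraries. Exposed lungs at day 1 had 0, against 1 (12 libraries), 2 (CPM filter), 6 (no filter), 19 (DESeq2) and 150 (all 72); at day 27, 0 against 2 (DESeq2) and 1 (without shallow libraries). DESeq2 called 1, 5, 6 and 11 genes in the exposure comparisons 200 ug/m3 day 1, 200 day 7, 1000 day 27 and 200 day 27 (edgeR 0, 1, 0 and 0), with 6 in the 12-library fit of the first, 4 in the 72-library fit of the second and 2 with non-robust dispersions in the third. Differences of exposure effects had 1, 0 and 0 calls at days 1, 7 and 27, against 0 to 2, 0 to 1, and 34 (DESeq2) or 22 (all 72); changes of the 200 ug/m3 effect had 0, against 12, 3 and 2 (day 7 to 27; DESeq2, non-robust, all 72) and 7 (day 1 to 27; DESeq2), and of the 1000 ug/m3 effect 0, against 1 (day 7 to 27; DESeq2, limma-voom). All exposed against all air had 2, against 1 in limma-voom and 3 both without a filter and with non-robust dispersions. No paired analysis was possible because no animal number is shared between groups. Day 1 depth limits Bbc3 most.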
